A study of Rattus norvegicus with 65 samples.

Results

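The 9 genes described here make, carry and break down the monoamines, and were chosen by name from the 38513 genes of the deposited count table, which held all 9. They are Tph2, Th, Ddc and Hdc for synthesis, Slc6a4, Slc6a3 and Slc18a2 for transport, and Maoa and Maob for breakdown. Their RNA was measured in whole hypothalamus of 65 male Wistar rats, with 1 library per animal. The groups labelled Bypass, Lira, PYY and PYY_Lira are called RYGB, liraglutide, PYY3-36 and PYY3-36 + liraglutide.

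All treated animals and their controls had first been made obese on a high-fat diet. RYGB animals (n = 14) underwent Roux-en-Y gastric bypass and sham animals (n = 11) a sham operation. BWM animals (n = 7) were sham-operated and given only as much food as the RYGB group ate, so that their weight followed it. By the last week, according to the paper, BWM animals were nonetheless heavier than RYGB animals. Liraglutide, a GLP-1 analogue, was injected under the skin (n = 5), the gut peptide PYY3-36 was given by osmotic minipump (n = 4), 10 animals received both, and saline animals (n = 8) received saline by both routes, as the single-hormone groups did by the unused route. Apart from BWM, these groups could choose between high-fat and low-fat food. The 6 animals labelled lean carry no further label and were taken to be those the study calls low-fat diet only. Its methods describe the initial high-fat feeding for all animals without naming this group, so whether lean animals had it is uncertain. By the paper's account, the low-fat diet only group weighed about as much as the others when treatment began. The study's methods state that animals, controls included, were fasted before the brains were taken. They also describe plasma collected after a mixed meal close to that time, so whether every library comes from a fasted rat is uncertain. The work was done in 2 periods, batch A with 37 and batch B with 28 animals. RYGB (11 in batch A and 3 in batch B), sham (5 and 6), saline (3 and 5) and PYY3-36 + liraglutide (5 and 5) were in both, BWM and lean in batch A alone, and liraglutide and PYY3-36 in batch B alone.

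Monoamines are made from amino acids in small groups of neurons whose axons reach most of the brain. Tph2 starts serotonin synthesis in the raphe nuclei of the brainstem, Th starts the synthesis of dopamine and noradrenaline, Ddc completes serotonin and dopamine, and Hdc makes histamine in the tuberomammillary nucleus of the posterior hypothalamus. Slc18a2 (VMAT2) loads all of them into vesicles, Slc6a4 (SERT) and Slc6a3 (DAT) take serotonin and dopamine back up, and the mitochondrial enzymes Maoa and Maob degrade them. The hypothalamus has its own dopamine neurons, including those of the arcuate nucleus that restrain prolactin release, whereas the large dopamine groups rich in Slc6a3 lie in the ventral midbrain just behind it.

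The sequences before the start sites of 5 of these genes are shown, and no result below rests on their letters. Th and Slc18a2 varied together over the libraries, although Th did so more closely with Ddc, which is not shown. Slc6a3 gave the largest difference between RYGB and sham animals, Tph2 was the gene called between RYGB and BWM animals, and Maoa varied least. Each line holds the 250 bases before the RefSeq start site on build GRCr8, 5′ to 3′ on the strand of the gene. The regions are chr1:207508219-207508468 for Th, chr1:268399771-268400020 for Slc18a2, chr1:31578963-31579212 for Slc6a3, chr7:52675640-52675889 for Tph2 and chrX:8681373-8681622 for Maoa, with Slc18a2 on the plus and the others on the minus strand. Capitals mark matches, on either strand, to the cAMP response element TGACGTCA, the Sp1 GC box GGGCGG, the TATA box TATAAA or the NBRE AAAGGTCA.
Th: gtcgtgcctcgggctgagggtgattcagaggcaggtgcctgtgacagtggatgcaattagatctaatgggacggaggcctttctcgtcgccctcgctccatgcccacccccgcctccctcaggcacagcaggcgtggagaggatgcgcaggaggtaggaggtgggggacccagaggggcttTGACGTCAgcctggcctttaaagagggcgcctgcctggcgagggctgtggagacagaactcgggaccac
Slc18a2: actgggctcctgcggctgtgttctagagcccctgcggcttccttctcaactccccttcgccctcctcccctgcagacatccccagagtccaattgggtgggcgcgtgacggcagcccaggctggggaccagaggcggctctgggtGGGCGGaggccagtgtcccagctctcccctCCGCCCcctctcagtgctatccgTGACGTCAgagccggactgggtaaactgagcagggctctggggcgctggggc
Slc6a3: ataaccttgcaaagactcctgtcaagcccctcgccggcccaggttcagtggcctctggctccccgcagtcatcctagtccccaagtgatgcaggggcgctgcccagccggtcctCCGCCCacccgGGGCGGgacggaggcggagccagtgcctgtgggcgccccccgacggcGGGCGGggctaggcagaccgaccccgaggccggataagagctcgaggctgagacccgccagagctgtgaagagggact
Tph2: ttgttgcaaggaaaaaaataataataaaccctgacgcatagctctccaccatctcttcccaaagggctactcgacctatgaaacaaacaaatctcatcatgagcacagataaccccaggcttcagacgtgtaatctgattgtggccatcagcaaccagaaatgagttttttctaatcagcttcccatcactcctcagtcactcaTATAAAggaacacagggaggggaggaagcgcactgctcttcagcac
Maoa: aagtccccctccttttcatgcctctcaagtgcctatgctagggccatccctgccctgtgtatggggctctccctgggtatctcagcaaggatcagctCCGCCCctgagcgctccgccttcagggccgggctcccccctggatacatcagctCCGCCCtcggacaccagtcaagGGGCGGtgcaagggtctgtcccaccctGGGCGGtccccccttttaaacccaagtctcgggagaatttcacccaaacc

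RefSeq sequences were matched for 8 of the 9 genes, and Slc6a4 had none in the table used. The cAMP response element stood 69 bases before the start of Th and 52 bases before that of Slc18a2. No other of the 8 genes had it, Ddc included. The element was present in 1.59% of the 33469 RefSeq promoter windows of this length. The GC box, found in 30.5% of all windows, had 3 copies at Slc6a3, 2 at Slc18a2, 4 at Maoa, 2 at Maob and 1 at Hdc. Tph2 had none and carried the TATA box 46 bases before its start, a motif in 12.9% of windows. Among 3 listed starts of Ddc, the first carried the NBRE 73 bases before it and a TATA box overlapping it, both on the strand opposite to the gene, and the NBRE was in 1.24% of all windows. A match is a description of letters and was not tested for binding.

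Library totals ran from 20040821 to 36539714 estimated counts, with a median of 27379758, and all 9 genes passed the filter on low counts that kept 21871 genes. Levels are given as CPM, counts scaled to a common library size after TMM normalization. The labelled tissue was checked with 9 genes of hypothalamic neurons (Hcrt, Pmch, Avp, Oxt, Pomc, Agrp, Trh, Sim1 and Nkx2-1), whose summed level had a median of 1711 CPM but ranged from 12.02 to 8194 CPM. In 12 libraries it lay below 0.1 of the median. These were 1 of 7 BWM, 2 of 6 lean, 2 of 5 liraglutide, 1 of 10 PYY3-36 + liraglutide, 1 of 4 PYY3-36, 2 of 8 saline, 3 of 11 sham and 0 of 14 RYGB libraries. In 3 libraries, BWM replicates 5 and 7 and PYY3-36 replicate 3, the pituitary hormone gene Prl exceeded 50 CPM. Some results of Th, Slc6a3 and Tph2 are also given without these libraries. Those of the other genes are mostly given with them only, and so may depend on them.

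Per kilobase of exon, the median level over all libraries was highest for Maob (47.7 CPM per kb, range 21.7 to 105.7) and Maoa (28.9, range 15.5 to 36.1). Th followed with 12.5 CPM per kb, then Ddc with 4.05, Hdc and Slc18a2 with 2.39 each, Tph2 with 0.404, Slc6a3 with 0.259 and Slc6a4 with 0.0304. Neighbours in this order overlapped in every case, since Th alone ran from 0.405 to 177 CPM per kb and Slc6a3 from 0 to 73.4. The breakdown enzymes were measured well above 0 in every library, while Slc6a3 and Hdc were at 0 in 11 and 4 libraries. Maoa and Maob are close paralogs whose counts were not whole in 35.4% of libraries, so some of their reads were counted in fractions. With which loci those reads were shared was not tested, and their levels carry that uncertainty. Slc6a4 was at or under 3 counts in 35 of 65 libraries and at 0 in 12, so differences of this gene were hardly detectable at this depth. In whole tissue, fewer cells of a type and less RNA per cell cannot be told apart.

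**Figure D1:**
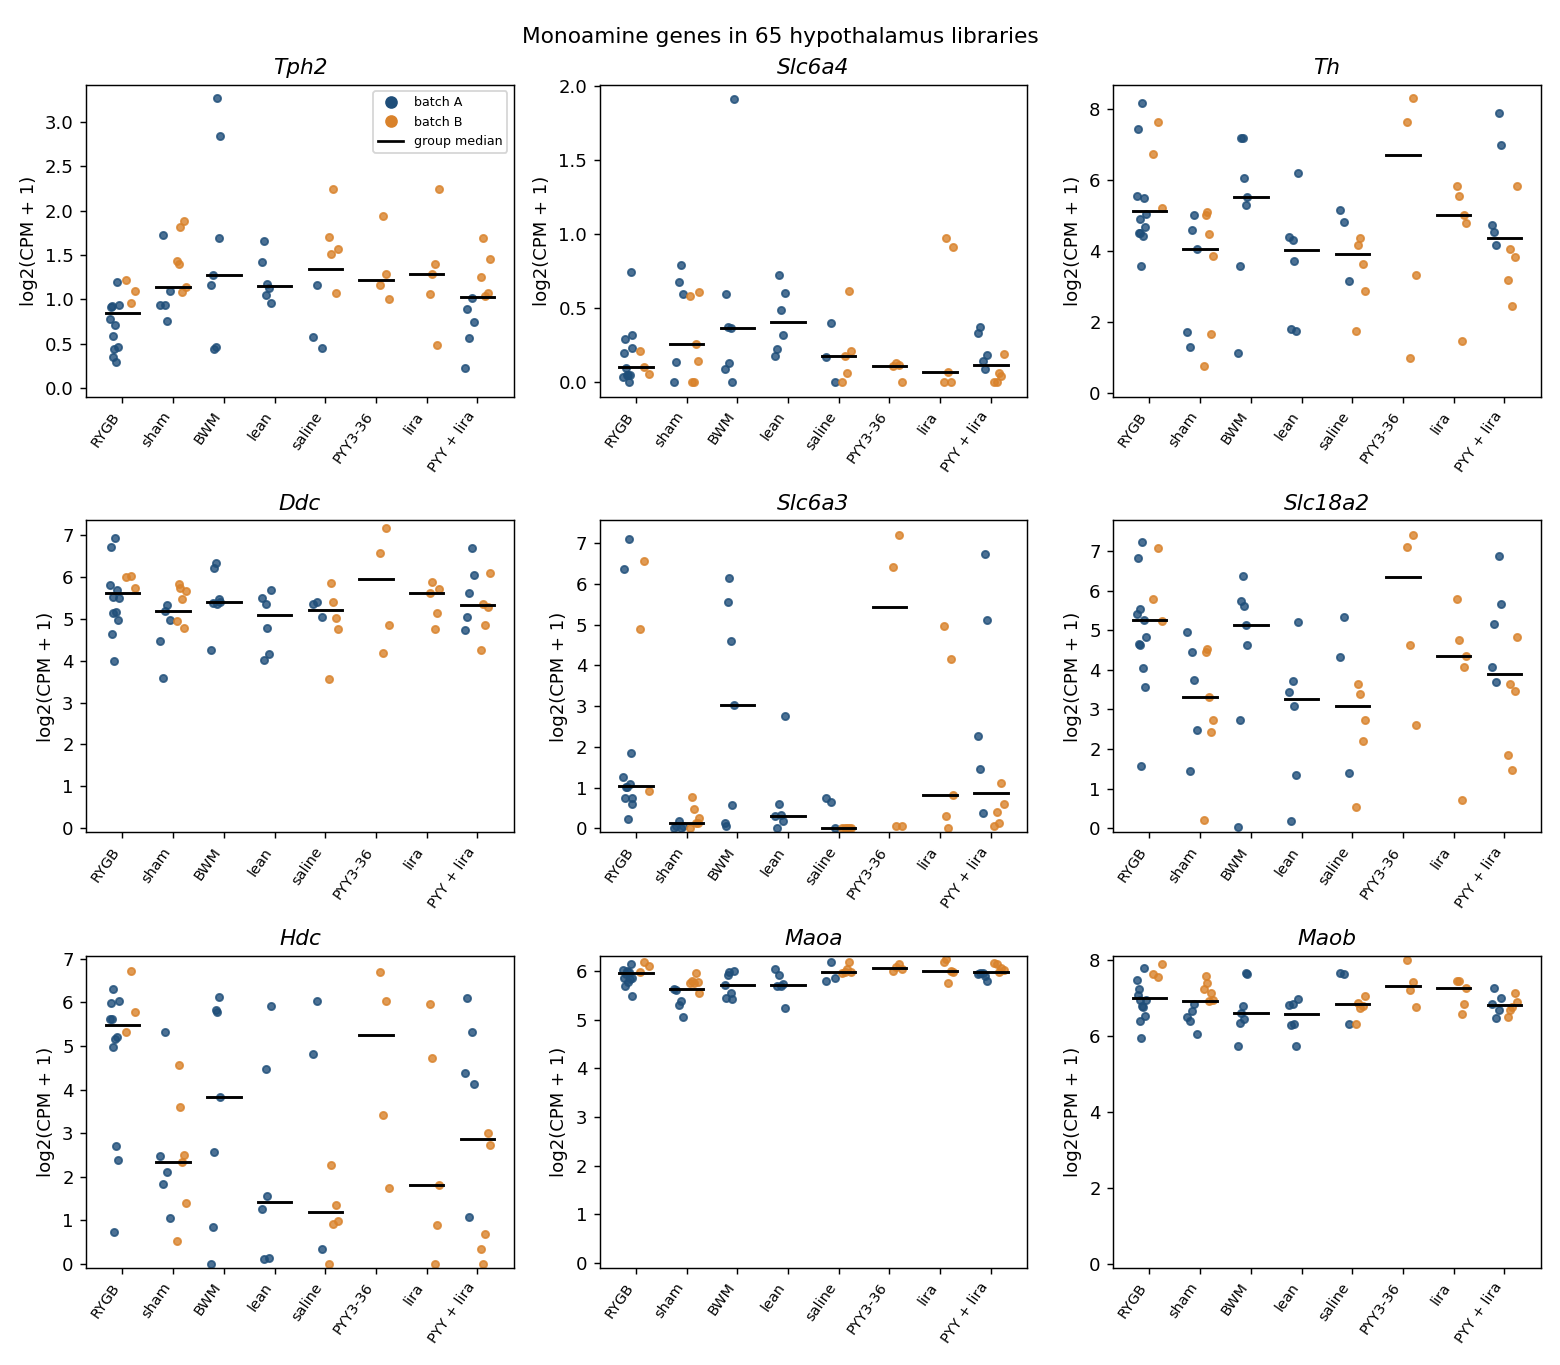
Level of each of the 9 genes in every library, as log2(CPM + 1) on the vertical axis, by group on the horizontal axis. Points are single animals, blue for batch A and orange for batch B, and the line is the group median. Slc6a3 stays under 1 CPM in all sham and saline libraries and exceeds 10 CPM in 13 libraries of the RYGB, BWM and hormone-treated groups, whereas Maoa spans only 32.2 to 75.1 CPM.

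RYGB was compared with sham to ask what the operation changes at the level of monoamine genes. Of the 9 genes, 3 were higher in RYGB-treated animals (Th, Slc6a3 and Maoa), beside 6.52% of all genes tested, and 0 were lower, beside 6.53%, by the edgeR quasi-likelihood test with a Benjamini-Hochberg adjusted p under 0.05 over all genes. Th and Slc6a3 also differed by more than 1 on the log2 scale, as did 2.37% of all genes. The median log2 fold change of the 9 genes was 0.59, compared with -0.02 over all genes. At an unadjusted p under 0.05 there were 6 of them, beside 30.0% of all genes.

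Th, the rate-limiting enzyme of dopamine synthesis (Gene ID 25085, minus strand of chr1:216073034-216080287 on Rnor_6.0), was at 10.9 to 283 CPM in the RYGB animals of batch A, with a median of 28.7. In batch B they had 105, 197 and 35.6 CPM. The sham animals had 2.30, 1.49, 23.1, 31.3 and 15.5 CPM in batch A and 0.713 to 33.5 CPM in batch B, with a median of 17.3. In batch B all RYGB values lay above all sham values, and in batch A 10 of 11 lay above the sham median but only 5 above the highest sham animal. The log2 fold change was 2.12 ± 0.72 (SE; adjusted p = 0.0425). It was 2.15 within batch A (adjusted p = 0.178) and 2.73 within batch B (adjusted p = 0.102). Leaving out RYGB replicate 13 gave 1.73 (adjusted p = 0.124), and the call was made in 12 of 25 fits that each left out 1 animal. Without the libraries low in hypothalamic markers it was 1.74 (adjusted p = 0.0919). These include sham replicates 2, 6 and 10, which had the 3 lowest Th values of the sham group at 1.49, 0.713 and 2.18 CPM. The summed hypothalamic markers ran from 701 to 6943 CPM in RYGB and from 24.3 to 6924 CPM in sham animals, and their part in the Th difference was not tested. With saline in place of sham as the control, Th was not called.

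Slc6a3, the dopamine transporter (Gene ID 24898, minus strand of chr1:32323011-32363983), gave the largest difference of the 9. All 11 RYGB animals of batch A, at 0.179 to 136 CPM with a median of 1.02, lay above the 5 sham animals, which had 0, 0.0330, 0.140, 0 and 0.0363 CPM. In batch B the RYGB values of 28.5, 93.1 and 0.902 CPM likewise lay above all 6 sham values, which ran from 0 to 0.707 CPM with a median of 0.148. The groups thus did not overlap within either batch. Behind the sham values stood no more than 16 counts in any library. The fitted difference was 7.26 ± 1.58 on the log2 scale (adjusted p = 0.0030), and all 25 fits without 1 animal passed the threshold, with 6.40 as the lowest value. Within batch A it was 8.86 (adjusted p = 0.0517) and within batch B 7.30 (adjusted p = 0.0141). This fold rests on a sham group close to 0, and the RYGB group was itself uneven, because replicates 2, 7, 12 and 13 exceeded 10 CPM and the other 10 lay between 0.179 and 2.60 CPM. Without the libraries low in hypothalamic markers it was 7.004 (adjusted p = 0.0241). With saline in place of sham as the control, Slc6a3 was not called, nor with terms for the replicate number in the fit.

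Maoa, which degrades serotonin and noradrenaline (Gene ID 29253, minus strand of chrX:6554698-6620722), differed least in size of the 3 called genes and had the smallest standard error. RYGB animals had 43.9 to 70.1 CPM in batch A (median 56.9) and 61.7, 71.6 and 68.0 CPM in batch B. Sham animals had 48.5, 48.1, 38.5, 40.5 and 32.2 CPM in batch A and 45.7 to 61.2 CPM in batch B (median 53.7). Of the 11 RYGB animals in batch A, 10 lay above the highest sham animal, and in batch B all 3 did. Maoa was higher by 0.40 ± 0.08 on the log2 scale (adjusted p = 0.0016), with 0.49 in batch A (adjusted p = 0.0321) and 0.34 in batch B (adjusted p = 0.0182), and it was called in all 25 fits without 1 animal. The saline group, the other obese control, did not share the low sham level. Against saline, the RYGB difference of Maoa was 0.01 (adjusted p = 0.9999).

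Slc18a2, the vesicular transporter (Gene ID 25549, plus strand of chr1:280397831-280457968), was at 1.97 to 148 CPM in RYGB animals of batch A (median 27.2) and at 54.0, 133 and 36.7 CPM in batch B. Sham animals had 29.7, 1.72, 20.8, 12.3 and 4.58 CPM in batch A and 0.165 to 22.1 CPM in batch B (median 7.30). The groups were apart in batch B and overlapped in batch A. Its log2 fold change of 1.97 ± 0.70 missed the threshold (adjusted p = 0.0511), although DESeq2 called it at 1.98 (adjusted p = 0.0284). Hdc (Gene ID 24443, minus strand of chr3:119057524-119075599) was at 0.646 to 78.2 CPM in batch A (median 36.1) and at 39.0, 105 and 53.7 CPM in batch B, against sham medians of 3.28 and 4.33 CPM. Its log2 fold change of 2.14 ± 0.94 did not pass (adjusted p = 0.114), and sham replicate 3 alone reached 39.2 CPM. Ddc (Gene ID 24311, minus strand of chr14:91905919-91996816), the shared second step of serotonin and dopamine synthesis, had a log2 fold change of 0.59 ± 0.31 (adjusted p = 0.200) and medians of 47.9 CPM in RYGB and 35.2 CPM in sham animals.

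The serotonin genes lay on the other side of 0 without passing the test. Tph2 (Gene ID 317675, minus strand of chr7:58042279-58149220) was at 0.222 to 1.28 CPM in RYGB animals of batch A (median 0.642) and at 1.33, 0.937 and 1.13 CPM in batch B, compared with sham medians of 0.912 and 1.67 CPM. No RYGB animal exceeded the highest sham animal of its batch, and 6 of 11 in batch A lay below the lowest. The log2 fold change was -0.72 ± 0.36 (adjusted p = 0.166). Slc6a4 (Gene ID 25553, minus strand of chr10:63153656-63188377) had a log2 fold change of -1.32 ± 0.70 (adjusted p = 0.198) at medians of 0.0714 and 0.193 CPM. Maob (Gene ID 25750, plus strand of chrX:6430694-6533520), the monoamine oxidase found in astrocytes as well as in serotonin and histamine neurons, had 127 and 121 CPM as medians and a log2 fold change of 0.32 ± 0.20 (adjusted p = 0.286). For no gene of the 9 did the RYGB effect differ between batches by a test of the difference itself, with an adjusted p of 0.806 or more.

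**Figure D2:**
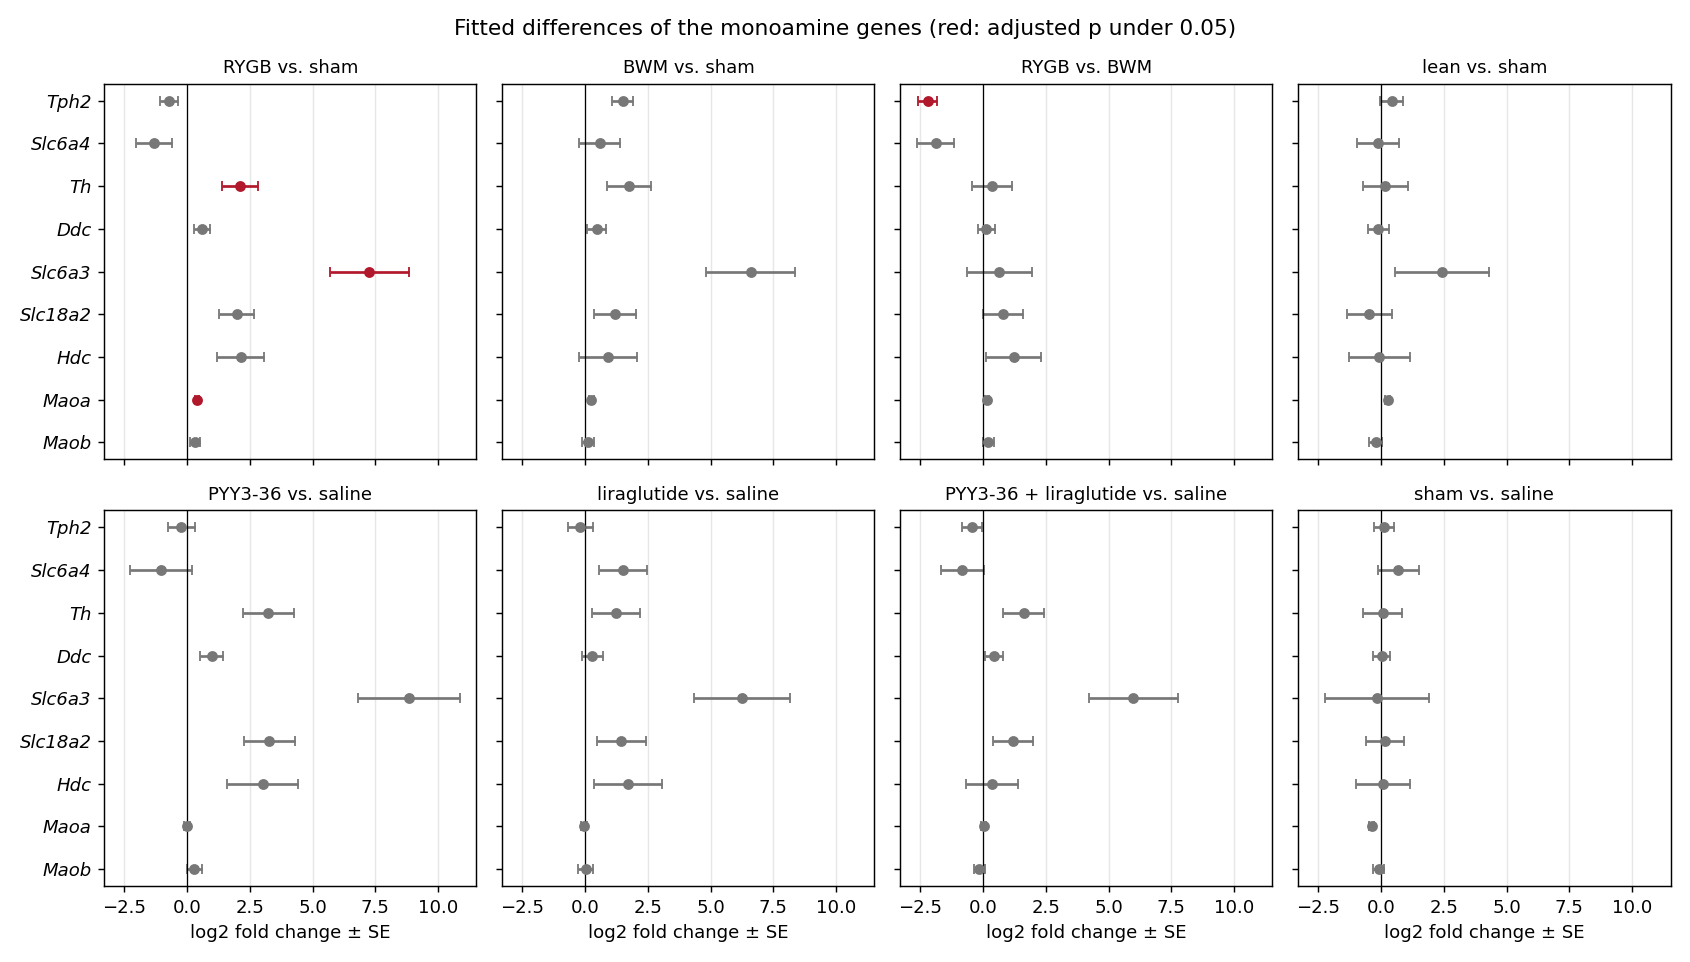
Fitted log2 fold change of each of the 9 genes (points) with its standard error (bars) in 8 comparisons, 1 per panel. Red points passed an adjusted p under 0.05. They are Th (2.12), Slc6a3 (7.26) and Maoa (0.40) for RYGB vs. sham and Tph2 (-2.21) for RYGB vs. BWM. All other points are grey, including Slc6a3 for PYY3-36 vs. saline at 8.84.

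BWM was compared with sham to see which differences come with weight loss by food restriction alone. The edgeR test called 0 of the 9 genes, beside 0.320% of all genes, whereas 4 had an unadjusted p under 0.05 (12.3% of all genes) and DESeq2 called 2, Tph2 and Slc6a3. All 9 log2 fold changes were above 0, with a median of 0.93 compared with -0.000896 over all genes. Slc6a3 was at 0.0363 to 69.3 CPM in the 7 BWM animals (median 7.18), of which 5 lay above the highest of the sham animals in the same batch. Its log2 fold change was 6.61 ± 1.77 (adjusted p = 0.0757). Th ran from 1.20 to 143 CPM (median 44.6) with a log2 fold change of 1.75 ± 0.86 (adjusted p = 0.397). The lowest Th value came from BWM replicate 1, a library low in hypothalamic markers. Without that animal Slc6a3 (6.84, adjusted p = 0.0304) and Tph2 (1.63, adjusted p = 0.0331) both passed. Slc6a3 also passed without replicate 2 (6.83, adjusted p = 0.0445), and Tph2 without replicate 3 (1.70, adjusted p = 0.0418) or replicate 4 (1.69, adjusted p = 0.0419). Of 18 fits without 1 animal, only 2 called Slc6a3 and 3 called Tph2. With all animals Tph2 stood at 1.498 (adjusted p = 0.0897). It fell to 0.928 (adjusted p = 0.441) without BWM replicate 5 and to 1.201 (adjusted p = 0.457) without replicate 7. The highest adjusted p of Slc6a3 was 0.175, without replicate 5.

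Slc18a2 and Hdc had BWM medians of 33.9 and 13.1 CPM and log2 fold changes of 1.17 ± 0.84 (adjusted p = 0.597) and 0.93 ± 1.16 (adjusted p = 0.798). Ddc, Maoa and Maob had log2 fold changes of 0.46 ± 0.38, 0.25 ± 0.10 and 0.11 ± 0.25, with adjusted p between 0.242 and 0.889, and Slc6a4 had 0.57 ± 0.83 (adjusted p = 0.827). These comparisons use the same sham animals as those of RYGB, so both sets of values stand side by side and are not independent. With saline in place of sham, Maoa turned to -0.13 in BWM animals.

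The Tph2 difference between RYGB and BWM animals rested largely on BWM replicates 5 and 7. The paper called genes in this comparison, nearly all lower in RYGB animals, and names Tph2 among those linked to food intake. When it then compared the normalized counts of Tph2, it found no significant difference. The BWM animals had 0.357 to 8.62 CPM with a median of 1.42, and no RYGB animal of either batch exceeded that median. Tph2 was 1 of 9 genes called for RYGB vs. BWM, beside 0.343% of all genes, with a log2 fold change of -2.21 ± 0.38 (adjusted p = 0.000643). The highest values were those of BWM replicate 5 with 8.62 CPM and replicate 7 with 6.15 CPM, while the other 5 lay between 0.357 and 2.23 CPM. Without replicate 5 it was -1.63 (adjusted p = 0.107), and the other 20 fits without 1 animal made the call. Within batch A the log2 fold change was -2.17 (adjusted p = 0.0626).

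The same 2 BWM libraries carried pituitary transcripts. Prl was at 12887 CPM in replicate 5 and at 104 CPM in replicate 7, compared with at most 2.92 CPM in the other 5, and Pou1f1, the transcription factor of the cells that make it, was at 174 and 1.53 CPM. Over the 8 pituitary markers the summed level ran from 1.14 to 76815 CPM in BWM and from 1.93 to 505 CPM in RYGB animals. Without the 3 libraries above 50 CPM of Prl, the Tph2 difference between RYGB and BWM was -0.84 (adjusted p = 0.397), and that between BWM and sham went from 1.498 ± 0.43 (adjusted p = 0.0897) to 0.12 (adjusted p = 0.999). The remaining library above 50 CPM of Prl, PYY3-36 replicate 3, had 86.5 CPM of Prl, 0.615 CPM of Pou1f1 and 1.44 CPM of Tph2. Fev, the transcription factor that defines raphe serotonin neurons, was at 0 in 31 of 65 libraries and reached no more than 0.669 CPM, and it was at 0.144 and 0.412 CPM in these BWM animals. The 9 raphe markers summed to 18.2 to 45.5 CPM in BWM, 16.2 to 42.3 CPM in RYGB and 15.3 to 24.7 CPM in sham animals. The part of pituitary tissue or of serotonin neurons in the difference was not tested.

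**Figure D3:**
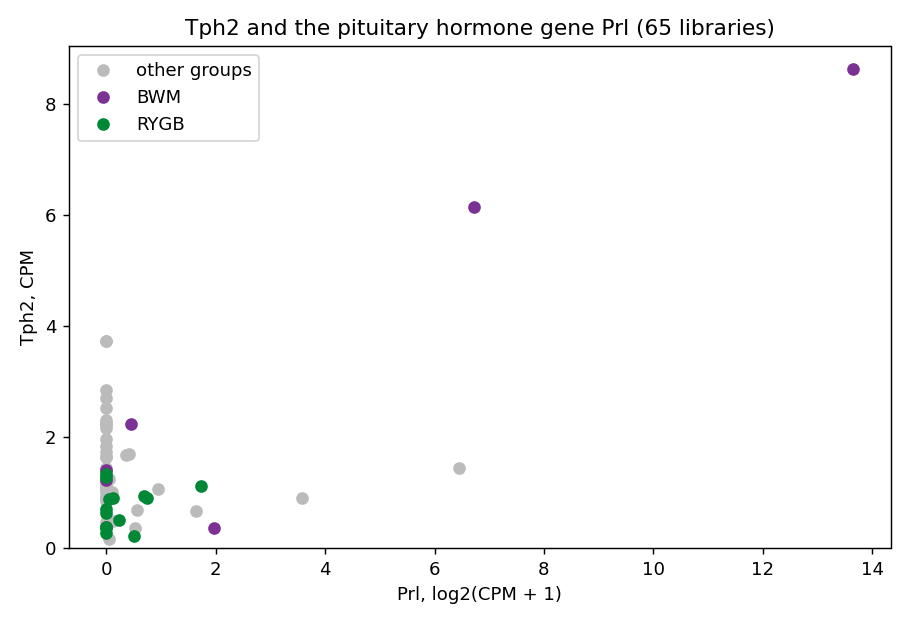
Tph2 in CPM (vertical axis) against the pituitary hormone gene Prl as log2(CPM + 1) (horizontal axis) in 65 libraries, with BWM animals in purple, RYGB animals in green and other groups in grey. BWM replicates 5 and 7 stand apart from all other animals in Tph2, at 8.62 and 6.15 CPM, while every RYGB animal lies at 1.33 CPM or below.

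No other gene differed between RYGB and BWM beyond the threshold. Slc6a4 was lower in RYGB animals in sign, by -1.89 ± 0.73 (adjusted p = 0.300), a value carried by BWM replicate 7 with 94 counts and going to -0.43 without it (adjusted p = 0.842). Th and Slc6a3 had log2 fold changes of 0.36 (95% interval -1.20 to 1.92) and 0.65 (-1.89 to 3.19), intervals wide enough to hold a several-fold difference either way. Maoa was held more closely, at 0.15 with an interval of -0.03 to 0.32.

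Lean animals, taken as the low-fat diet group, were compared with sham animals with their choice of diets, and 0 of the 9 genes were called by edgeR or by DESeq2, beside 0% of all genes by edgeR. Maoa alone had an unadjusted p under 0.05 (12.2% of all genes), with 0.26 ± 0.10 (adjusted p = 0.303). Lean animals had 36.6 to 65.02 CPM of Maoa with a median of 51.8, and without replicate 6, the lowest, the difference was 0.34 and passed (adjusted p = 0.0372). That animal had the highest Th (72.3 CPM), Slc6a3 (5.78 CPM), Slc18a2 (35.9 CPM) and Hdc (59.4 CPM) of its group. Lean replicates 2 and 5, both low in hypothalamic markers, had the lowest values of all 4 of these genes, with Th at 2.49 and 2.39 CPM. The median log2 fold change of the 9 genes was -0.08, beside -0.02 over all genes.

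The hormone treatments were compared with saline, and no gene of the 9 was called by edgeR for PYY3-36, liraglutide or both together, beside 0% of all genes for the single hormones and 0.00457% for the combination. DESeq2 called Slc6a3 for PYY3-36 and for the combination and no gene for liraglutide. At an unadjusted p under 0.05 there were 5 genes for PYY3-36 (7.54% of all genes), 1 for liraglutide (2.08%) and 1 for the combination (2.53%), and Slc6a3 was among them each time.

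Slc6a3 was at 0 counts in all 5 saline animals of batch B, where 3 counts would correspond to 0.127 to 0.154 CPM, and at 0.681, 0.574 and 0 CPM in the 3 of batch A. The PYY3-36 animals, all in batch B, had 83.9, 0.0474, 146 and 0.0372 CPM, so that 2 of 4 were far above all saline animals and the other 2 rested on 1 count each. Liraglutide animals had 30.2, 0.240, 0, 16.8 and 0.769 CPM. PYY3-36 + liraglutide animals had 3.82, 1.73, 0.307, 105.8 and 33.4 CPM in batch A and 0.0446, 0.329, 0.0872, 1.15 and 0.517 CPM in batch B. The fitted log2 fold changes were 8.84 ± 2.02 (adjusted p = 0.272), 6.27 ± 1.92 (adjusted p = 1) and 5.99 ± 1.79 (adjusted p = 0.9998), and since they stand on a control near 0 their size is not a bound.

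The other dopamine genes were highest in the same animals. In the PYY3-36 group Th was at 196, 0.996, 312 and 9.07 CPM, Slc18a2 at 136, 23.7, 168 and 5.09 CPM, and Ddc at 93.5, 17.3, 143 and 28.1 CPM, in the order of the Slc6a3 values above. The saline animals of batch B had 2.40 to 19.6 CPM of Th, 0.452 to 11.5 CPM of Slc18a2 and 10.8 to 57.1 CPM of Ddc. Replicates 1 and 3 lay above all of these saline animals for each of the 3 genes and replicate 2 for Slc18a2 alone. The log2 fold changes against saline were 3.24 ± 1.02 for Th, 3.28 ± 1.01 for Slc18a2, 0.98 ± 0.45 for Ddc and 3.02 ± 1.41 for Hdc, each with an adjusted p of 0.652. Replicate 2 was low in hypothalamic markers and replicate 3 carried Prl, and without the first kind of library Th stood at 3.30 and Slc6a3 at 8.71, without the second at 2.32 and 7.82. For liraglutide the values were 1.23 ± 0.97 for Th and 1.45 ± 0.96 for Slc18a2, and for the combination 1.61 ± 0.83 and 1.18 ± 0.80, none of which passed. These comparisons share the saline animals.

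For Maoa the intervals were narrow, with log2 fold changes of -0.02 (95% interval -0.24 to 0.21) for PYY3-36, -0.04 (-0.25 to 0.17) for liraglutide and 0.02 (-0.15 to 0.19) for the combination. Maob had 0.28 ± 0.30, 0.02 ± 0.28 and -0.15 ± 0.23. Tph2 had -0.23 ± 0.53, -0.19 ± 0.49 and -0.45 ± 0.41, and Slc6a4 -1.03 ± 1.24, 1.49 ± 0.96 and -0.82 ± 0.87. The liraglutide value of Slc6a4 rested on replicates 2 and 5, with 20 and 24 counts, while the other 3 had 0 or 1 count. PYY3-36 and liraglutide were given by different routes, so they were not compared with each other.

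Sham and saline animals, both obese controls, were compared to see how far the choice of control matters. The edgeR test called 0 of the 9 genes, beside 0.0137% of all genes, 1 gene had an unadjusted p under 0.05 (12.9% of all genes), and DESeq2 called 1, in each case Maoa. Saline animals had 54.3, 71.4 and 56.6 CPM of Maoa in batch A, all above the 5 sham animals, and 61.1, 62.0, 65.1, 71.4 and 61.9 CPM in batch B, where 5 of 6 sham animals lay below the lowest of them. Sham animals thus had -0.38 ± 0.09 on the log2 scale (adjusted p = 0.0879), a value that passed without sham replicate 1 (adjusted p = 0.0228). Maob had -0.82 in batch A and 0.45 in batch B, but the difference between the batches did not pass (1.27 ± 0.41, adjusted p = 0.235). Between batches, with the group held constant, 2 of the 9 genes were called, beside 40.7% of all genes in either direction. Both were higher in batch B, namely Tph2 (1.01 ± 0.29, adjusted p = 0.00329) and Maoa (0.22 ± 0.06, adjusted p = 0.00259).

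Library by library, some of the 9 genes varied together and others did not. After the mean of each group within each batch was removed from log2(CPM + 1), Th and Ddc had a Pearson's r of 0.88 and a Spearman's rho of 0.90 over 65 libraries. For Th and Slc18a2 these were 0.85 and 0.86, for Slc18a2 and Hdc 0.81 and 0.79, and for Hdc and Maob 0.73 and 0.74. All 8 of these values had a permutation p of 1e-05, the smallest that 100000 resamples can give, and 4e-05 after adjustment over 72 correlations in 36 pairs. Without the 2 libraries farthest from the median of the first gene, r was 0.87, 0.86, 0.78 and 0.70. Within batch A rho was 0.90, 0.82, 0.76 and 0.70, and within batch B 0.85, 0.92, 0.80 and 0.80. Thus each pair held within both batches. Maoa, by contrast, had rho between -0.09 and 0.24 with the other 8 genes, and Tph2 between -0.04 and 0.26.

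**Figure D4:**
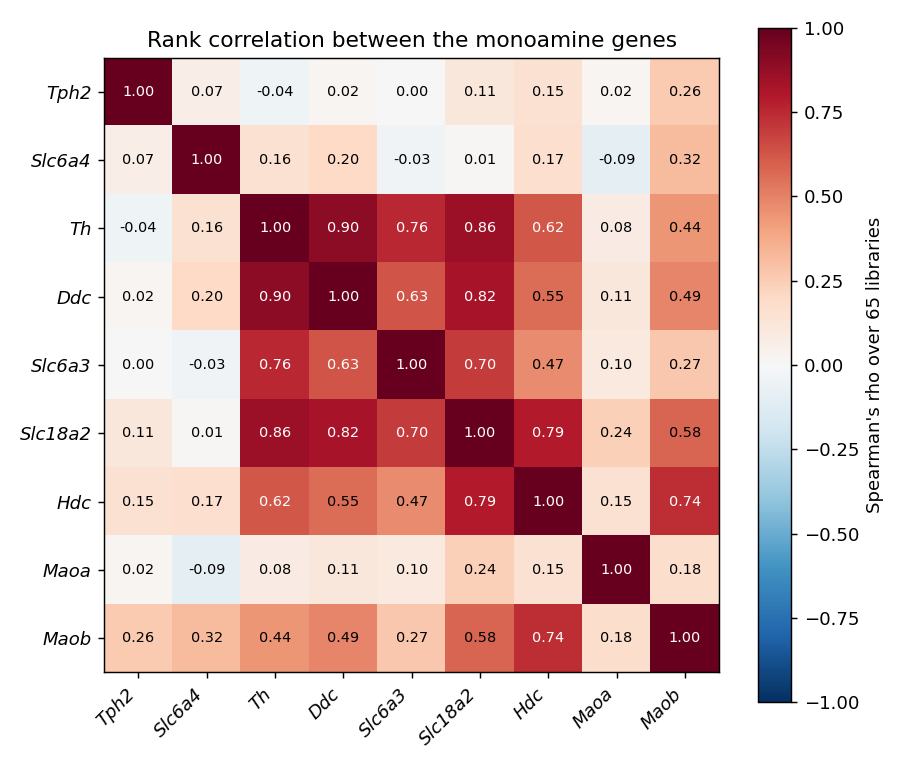
Spearman's rho between the 9 genes over 65 libraries, after removal of the mean of each group within each batch, with red for positive and blue for negative values. Th, Ddc, Slc6a3, Slc18a2 and Hdc form a block of rho between 0.47 and 0.90, Maob joins it through Hdc (0.74), and Tph2, Slc6a4 and Maoa have no rho above 0.24 with those 5 genes.

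By the same measure over the 21871 genes tested, the genes most like Slc6a3 were Foxa2 (rho 0.906), En1 (0.865) and Chrna6 (0.846), all 3 of them in the list of midbrain dopamine markers used below. Those most like Th were Ddc, Slc18a2 and Ret (0.80). Irx3 (0.85) and Irx5 (0.81) were among those most like Hdc. Maob was most like Nkx2-4 (0.81), LOC100361018 (0.81) and Celsr1 (0.81), and Maoa like Luzp2 (0.81), Atrn (0.75) and Rrm2b (0.68). For the serotonin genes no gene came as close, with Nat2 at 0.54 for Tph2 and LOC681383 at 0.56 for Slc6a4. These values describe likeness among libraries that share tissue dissection and depth.

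Markers of the midbrain moved with Slc6a3. The summed level of 9 of 9 midbrain dopamine markers (Pitx3, En1, En2, Foxa1, Foxa2, Lmx1a, Nr4a2, Chrna6 and Aldh1a7) ran from 6.88 to 80.0 CPM in RYGB animals, from 3.68 to 36.5 in sham, from 4.51 to 74.8 in BWM, from 5.43 to 32.7 in lean, from 6.03 to 45.3 in saline, from 10.48 to 79.9 in PYY3-36, from 9.11 to 30.3 in liraglutide and from 4.78 to 76.7 in PYY3-36 + liraglutide animals. Among the defining ones, Pitx3 was at 0 in 18 libraries, Foxa2 in 40 and En1 in none. In the RYGB replicates 7 and 13, with 136 and 93.1 CPM of Slc6a3, En1 was at 15.4 and 7.12 CPM and Pitx3 at 4.65 and 2.47 CPM. In RYGB replicates 6 and 10, with 0.179 and 0.513 CPM of Slc6a3, En1 was at 0.0359 and 0.718 CPM and Pitx3 at 0.251 and 0.0684 CPM. Spearman's rho with the summed level was 0.71 for Slc6a3, 0.60 for Th, 0.54 for Slc18a2 and 0.02 for Maoa. Th and Slc18a2 had rho of 0.63 and 0.66 with the summed markers of thalamus and habenula, above those with the midbrain list, and -0.51 and -0.57 with those of arcuate dopamine neurons, a list that shares Nr4a2 with the midbrain one and in which Gad1, found in many inhibitory neurons, had the highest median (371 CPM). Slc6a3 had 0.44 and -0.38 with these lists. With the raphe serotonin list, which shares En1 and En2 with the midbrain one, Slc6a3 had 0.67, close to its midbrain value. The saline animals of batch B, all at 0 for Slc6a3, had midbrain marker sums of 45.3, 23.7, 10.2, 33.04 and 6.03 CPM. Over all libraries Nr4a2, expressed in other neurons too, had the highest median of these markers (8.39 CPM). En1 was at 0.219 to 0.669 CPM in these 5 animals and Pitx3 at 0 to 0.399 CPM, and over all libraries the rho of Slc6a3 was 0.86 with En1 and 0.82 with Pitx3. The part of midbrain tissue in the group differences was not tested.

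**Figure D5:**
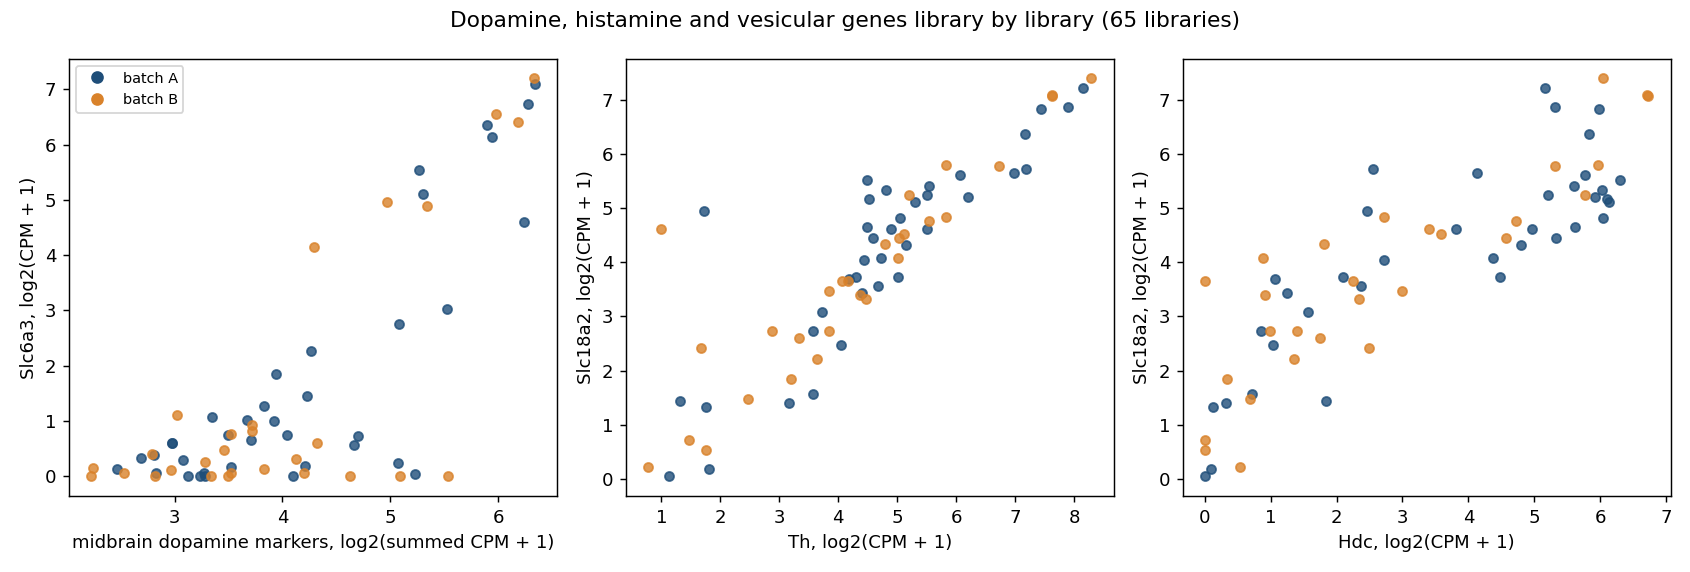
Each point is 1 of 65 libraries, blue for batch A and orange for batch B, and all axes are on the log2(CPM + 1) scale. Slc6a3 is plotted against the summed midbrain dopamine markers (left), where Slc6a3 reaches 146 CPM and the marker sum 80.0 CPM, with some libraries high in the sum and at 0 for Slc6a3. Slc18a2 is plotted against Th (middle) and against Hdc (right) and rises with both.

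Th and Hdc also followed the hypothalamic marker sum, with rho of 0.66 and 0.48, but had rho of -0.49 and -0.24 with the summed markers of tuberomammillary histamine neurons, in which the widely expressed Itpr1 (median 130.3 CPM) and Hrh3 (87.3 CPM) weighed most. In the 12 libraries low in the hypothalamic marker sum Hdc lay between 0 and 9.58 CPM. There Th was at 7.91 CPM or below except for liraglutide replicate 4 with 31.3 CPM. Maoa in the same libraries lay between 48.1 and 66.3 CPM. Mast cells are another source of Hdc. Of their 9 markers, 8 stayed under 1 CPM in every library, and the defining ones Cpa3 and Tpsb2 were at 0 in 41 and 40 libraries. The summed level was 10.7 to 148 CPM in sham and 23.2 to 71.0 CPM in RYGB animals, nearly all from Kit, which neurons also express and which alone ran from 10.4 to 148 CPM. The part of mast cells in the Hdc level was not tested. Maob had rho of 0.72 with the pituitary marker sum and Hdc 0.60, whereas Tph2 had 0.23.

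Among 24 further genes of monoamine metabolism, 22 passed the filter. For RYGB vs. sham 2 of them were called higher and 1 lower, beside 6.52% and 6.53% of all genes, a share near that of all genes. Gch1, which makes the cofactor that Th and Tph2 need, was higher by 1.53 ± 0.44 (adjusted p = 0.0179), and Aldh1a1, an aldehyde dehydrogenase of midbrain dopamine neurons among other cells, by 0.85 ± 0.28 (adjusted p = 0.0377). Tph1, the tryptophan hydroxylase of gut and pineal gland, was lower, with a log2 fold change of -2.33 ± 0.62 (adjusted p = 0.0106). Dbh, which turns dopamine into noradrenaline, had 0.16 ± 0.73 (adjusted p = 0.909). The median over the 22 genes was 0.02, against -0.02 over all genes. None of the 22 was called in the other 7 group comparisons, where Tph1 had -2.03 ± 0.79 for BWM vs. sham (adjusted p = 0.257) and 2.35 ± 0.76 for sham vs. saline (adjusted p = 0.232). Gch1 had 0.89 ± 0.54 for BWM vs. sham (adjusted p = 0.512) and 0.79 ± 0.63 for PYY3-36 vs. saline (adjusted p = 0.717). Between batches, with the group held constant, 7 of the 22 were called, beside 40.7% of all genes. Pts (0.42), Akr1b1 (0.33) and Qdpr (0.50) were higher in batch B on the log2 scale, and 4 were lower, among them Slc18a1 (-0.76), Sult1a1 (-0.89) and Asmt (-0.61), with adjusted p between 8.94e-06 and 0.0379 for the 6 named.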

How the data were processed

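Poly-A selected, strand-specific RNA libraries were sequenced from hypothalamus by the authors, who trimmed reads (cutadapt, several versions), aligned them to Rnor_6.0 with RefSeq genes (STAR 2.7.2b) and counted them per gene (featureCounts 1.6.4). The deposited values are estimated counts, since reads matching several genes were counted in fractions, and 30.3% of values above 0 were not whole (tolerance 1e-06). Reads shared by close paralogs can therefore be split. Counts were rounded, which changed no library total by more than 0.00104%.

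Genes were filtered with filterByExpr (minimum count 10, minimum total 15) and fitted over 65 libraries in edgeR 4.0.16 (R 4.3.3) with TMM scaling, group and batch terms and the robust quasi-likelihood test. A call is a Benjamini-Hochberg adjusted p under 0.05 over all 21871 genes. DESeq2 1.42.0, other filters, samples and controls were alternatives. The p-values of group differences set each difference against the spread between animals. On simulated counts for RYGB vs. sham, edgeR recovered 81% of 200 genes changed by 1 on the log2 scale among 21455 genes. It recovered 100% of those changed by 2 among 21471 genes. These shares do not carry over to genes with a wide spread between animals. Slc18a2 (1.97 ± 0.70) and Hdc (2.14 ± 0.94) had measured log2 fold changes near 2 for RYGB vs. sham and were not called. Levels are CPM, and correlations use log2(CPM + 1) with a pseudocount of 1. Library totals of 20040821 to 36539714 counts limit precision for genes near 0, and floors of 3 counts cover counting error only.

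The 9 genes, the marker and pathway lists and the comparisons were chosen with earlier results of these data known. All 9 genes are named throughout, pathway genes where called (up to 6 per comparison) together with Dbh, Tph1 and Gch1, and the 3 most alike genes by Spearman's rho. Some results on withheld genes are not reported here. Same-numbered animals correlated above 0.1 in every pair only for liraglutide vs. saline (5 of 5 pairs, 0.321 to 0.611). That pairing comes from the correlation alone, not from the labels, and the block changed no call there. Promoter letters are from RefSeq (GRCr8) and gene coordinates from the deposited table (Rnor_6.0).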

Additional observations from a re-analysis of the deposited data

Results flagged for a closer look

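In 80 sets of 4 to 10 animals (1 gene in 1 group and batch), 10 had a highest or lowest animal far from the rest by Dixon's criterion. Chance would flag about 1 in 20, or 4 here, for independent sets of normally distributed values. The sets share animals and several genes vary together, so the 10 cannot be weighed against the 4. Lean replicate 6 accounted for 4 of the 10 flagged sets, with 72.3 CPM of Th (next highest 20.04), 5.78 CPM of Slc6a3 (next 0.516), 35.9 CPM of Slc18a2 (next 12.2) and 59.4 CPM of Hdc (next 21.3). Sham replicate 3 had 39.2 CPM of Hdc (next 4.53) and 0.140 CPM of Slc6a3 (next 0.0363), the latter from 4 counts. Sham replicate 2 had 2.31 CPM of Tph2, above 1.13 CPM in the next animal of batch A. BWM replicate 7 had 2.76 CPM of Slc6a4 (next 0.508), and PYY3-36 replicate 4 was at 0 CPM for that gene while the nearest had 0.0794 CPM. Replicate 10 of PYY3-36 + liraglutide had 55.4 CPM of Th (next 15.7).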

How the results depend on the processing

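For RYGB vs. sham, 3 of the 9 genes were called. There was 1 with the replicate block, 1 in batch A alone, 6 with only the compared groups in the fit and 0 with saline as the control, and 2 to 4 without 1 animal. For BWM vs. sham (0) there were 2 by DESeq2, 1 without the libraries low in hypothalamic markers and 0 to 2 without 1 animal. For RYGB vs. BWM (1) there were 0 with the replicate block, in batch A alone, with only the compared groups or without the libraries with pituitary markers, and 0 to 1 without 1 animal. For lean vs. sham (0) and sham vs. saline (0) there were 0 to 1 without 1 animal. DESeq2 called 1 gene each for PYY3-36, PYY3-36 + liraglutide and sham vs. saline. For batch B vs. batch A (2) there was 1 with the replicate block and 1 with a fold threshold added. Maoa for BWM vs. sham went from 0.25 to -0.13 with saline as the control. The cause of these changes was not tested. With the replicate block, Th stood at 1.23 (adjusted p = 0.496) and Slc6a3 at 5.10 (adjusted p = 0.183) for RYGB vs. sham. There the replicate numbers were shared only, since 4 of 11 same-numbered pairs correlated above 0.1 and 0 of them best with their own number. Th for RYGB vs. sham also missed the threshold without a filter on low counts (adjusted p = 0.0661). The 2 alternatives that leave out libraries by their markers were chosen after seeing the data. Depth limits Slc6a4 most, and Slc6a3 in the controls.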
